A study of Homo sapiens with 30 samples.

Results

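Drug efflux transporters are membrane pumps of the ATP-binding cassette (ABC) family that carry drugs and their conjugates out of the cell. The 7 genes described here were ABCB1, ABCC1, ABCC2, ABCC3, ABCC4, ABCC5 and ABCG2, taken from a custom Affymetrix array whose annotation gave 12690 genes a probe set of their own. A probe set is the group of probes that reads 1 transcript, and a gene was read by its brightest probe set with a single gene symbol. Of the 7 genes, 6 had such a probe set and ABCC4 was not analysed here. The 6 genes had 10 probe sets, and 4 genes (ABCB1, ABCC3, ABCC5 and ABCG2) were bright enough to be among the 7614 genes tested.

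The 30 arrays came from 3 established human carcinoma lines grown as monolayers, each array from 1 RNA sample. RCC4, a renal carcinoma line, took 20 arrays. Of these, 10 were VHL-null and 10 came from cells with wild-type VHL reintroduced, called VHL-restored below. H1299, a non-small cell lung cancer line, took 4 arrays, 1 per time from each of 2 genotypes. HCT116, a colon carcinoma line, took 6 arrays, likewise 1 per time from each of 2 genotypes. The genotypes of these other lines are not compared here. The oxygen level in hypoxia was under 0.01%, held for 0, 1, 2, 4, 6 or 18 h in RCC4, for 0 or 24 h in H1299 and for 0, 12 or 24 h in HCT116. Another 2 RCC4 arrays per genotype had 1 h and 4 h of reoxygenation after 18 h. RCC4 at 0 h and 18 h had 2 independent replicates per genotype, and every other group was a single array. The labels name no clones, vectors or promoters for the reintroduced VHL, so an effect of VHL and any other difference of the 2 RCC4 sublines cannot be told apart.

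The values are linear intensities in whole numbers, and a null entry was taken as 0. The arrays fell into array set 1 (18 arrays) and array set 2 (12 arrays) by 5 control entries blank in set 1. Set 2 held replicate 2 of RCC4 at 0 h and 18 h and the arrays at 1 h, 4 h and reoxygenation, and set 1 held all others. Median listed intensities were 145 to 174 in set 1 and 201 to 222 in set 2, and 18.4% to 40.4% of an array's entries were null. VHL itself was too dim to be tested, at 14 to 109 on the VHL-null arrays and 1 to 40 on the 8 VHL-restored arrays where it was listed. Which stretch of the transcript its probes read is not stated. VHL therefore gives no check of the genotype labels, although the order of its values runs against them. Of the 6 renal markers on the array, 2 to 3 lay above the array median in RCC4 and 1 to 2 in H1299 and in HCT116. For 7 colon markers it was 1 to 3 in RCC4 and 3 in HCT116, and for 6 lung markers 3 to 4 in RCC4 and in H1299. These marker counts do not tell the lines apart. For 5 leukocyte markers it was 1 to 3 in RCC4 and 2 in the other lines, for 6 endothelial markers 4 in each line, for 7 fibroblast markers 1 to 3 in RCC4 and in H1299 and 3 in HCT116, and for 3 hepatocyte markers 1 to 2 in RCC4 and 2 in the other lines.

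ABCB1 encodes P-glycoprotein, which pumps out hydrophobic drugs such as anthracyclines, vinca alkaloids and taxanes, and which normal kidney carries on the brush border of the proximal tubule. The ABCC genes encode multidrug resistance proteins, many of whose cargoes are conjugates of glutathione, glucuronate or sulfate. ABCG2 encodes the breast cancer resistance protein, a half-transporter that works as a dimer and exports urate as well as drugs. VHL is the part of a ubiquitin ligase that marks hypoxia-inducible factors (HIF) for destruction in oxygen, and HIF binds DNA at a short core, ACGTG or GCGTG. Both ABCB1 and ABCG2 have been described as hypoxia-responsive through HIF.

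RefSeq promoter windows on GRCh38.p14, from 250 bases before to 50 after a transcript start, were found for 5 of the 7 genes, in 10 windows. They are shown for ABCB1, the gene whose level differed most, with both of its annotated starts, and for ABCG2, with one of its 2 overlapping windows that hold the most HIF cores. Capitals mark every match to ACGTG or GCGTG, searched on both strands. All 3 lie on the minus strand and read 5′ to 3′ along the gene: the downstream ABCB1 start at chr7:87600835-87601134, the upstream ABCB1 start at chr7:87713246-87713545 and ABCG2 at chr4:88158810-88159109.
ABCB1 downstream: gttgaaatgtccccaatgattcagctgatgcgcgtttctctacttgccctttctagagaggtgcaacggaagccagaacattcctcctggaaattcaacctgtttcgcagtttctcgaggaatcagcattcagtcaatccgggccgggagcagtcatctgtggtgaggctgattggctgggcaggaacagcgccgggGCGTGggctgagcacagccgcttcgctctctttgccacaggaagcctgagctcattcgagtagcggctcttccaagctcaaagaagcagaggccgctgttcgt
ABCB1 upstream: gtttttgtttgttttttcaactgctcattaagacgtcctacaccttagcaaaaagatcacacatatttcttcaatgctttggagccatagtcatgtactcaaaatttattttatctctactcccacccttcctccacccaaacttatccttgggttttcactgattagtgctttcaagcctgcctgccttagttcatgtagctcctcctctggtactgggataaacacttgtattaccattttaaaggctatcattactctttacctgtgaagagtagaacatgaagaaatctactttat
ABCG2: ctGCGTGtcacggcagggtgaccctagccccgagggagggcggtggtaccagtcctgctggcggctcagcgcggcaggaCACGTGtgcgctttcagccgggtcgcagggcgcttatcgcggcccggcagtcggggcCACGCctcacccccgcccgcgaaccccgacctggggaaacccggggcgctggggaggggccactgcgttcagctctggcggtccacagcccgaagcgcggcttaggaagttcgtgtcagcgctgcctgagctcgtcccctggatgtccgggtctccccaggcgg

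The downstream ABCB1 window held 1 HIF core, GCGTG, starting at base 198 of 300, and the upstream window held 0. It also held 2 matches to CCAAT, 1 on each strand, and 0 to the GC box GGGCGG. The ABCG2 window held 4 matches, 2 of which are the 2 strands of one palindrome, CACGTG, and its other 4 windows held 0 to 4. Single windows of ABCC5, ABCC4 and ABCC2 held 1, 3 and 0. For scale, 48.4% of all 35116 windows of this length held at least 1 HIF core, 34.6% held CCAAT and 45.0% held GGGCGG. A match is a stretch of letters, and its use in these cells was not measured.

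ABCB1 was the member whose level varied most. Its intensity ran from 47 to 547 over the 30 arrays, and the standard deviation (SD) of its centred log2 value was 0.83, rank 353 of 7614 genes, against a median of 0.29 for all tested genes. The centred value is log2(value + 16) minus the median of all genes on that array, and every log2 difference below is on this scale. Among the tested transporters ABCG2 followed with an SD of 0.34, ABCC3 with 0.20 and ABCC5 with 0.18, so these last 2 varied less than the median gene.

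ABCB1 was lower in VHL-null than in VHL-restored RCC4 at every state measured. At 0 h its intensity was 86 (replicate 1) and 222 (replicate 2) in VHL-null cells, against 260 and 524 in VHL-restored cells. After 1, 2, 4 and 6 h of hypoxia it was 172, 93, 167 and 96 without VHL, against 475, 242, 459 and 254 with it. At 18 h it was 98 and 195 against 205 and 543. Within each array set the genotypes did not overlap, whereas the highest VHL-null values of set 2 reached the lower VHL-restored values of set 1. After 1 h and 4 h of reoxygenation ABCB1 stood at 207 and 183 in VHL-null cells and at 547 and 447 in VHL-restored cells.

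**Figure D1:**
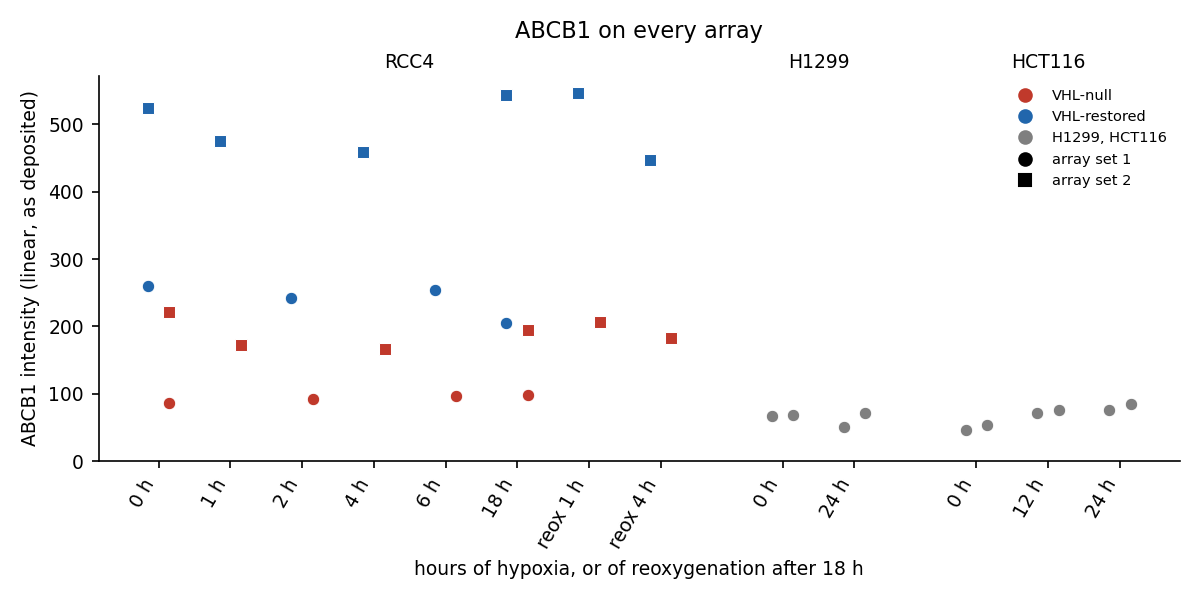
ABCB1 intensity (linear, as deposited) on each of the 30 arrays, by line and by hours of hypoxia or reoxygenation, with RCC4 genotype or the other lines as colour and array set as marker shape. VHL-restored RCC4 arrays lie above VHL-null arrays of the same set at every state, and the H1299 and HCT116 arrays lie between 47 and 85.

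Over all 20 RCC4 arrays, with state as a factor, ABCB1 was 2.55-fold lower without VHL (log2 difference -1.35, SE 0.098, limma adjusted p = 1.3e-07). It ranked 19 of 7614 genes by the size of this difference, and it was lower in 10 of 10 array pairs of the same state, replicate and set, with pair differences from -1.52 to -0.97. In set 1 alone the log2 difference was -1.22 (limma adjusted p = 2.4e-05) and in set 2 alone -1.44 (2.5e-08), and with array set as a term the adjusted p was 2.9e-11. In this fit 15.1% of all tested genes were called, meaning an adjusted p below 0.05 over the 7614 genes, and 34.2% with array set as a term. Of the 4 tested transporters, 2 were called lower and 0 higher, or 3 lower with the term. In cultures measured as bulk RNA, fewer cells with a transcript and less of it per cell cannot be told apart.

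At 0 h alone the ABCB1 difference was -1.37 (SE 0.314, 2 arrays per genotype), with a limma adjusted p of 0.353. The replicates of RCC4 differed in the same way in all 4 groups, and once replicate number entered as a block the SE was 0.118 and the adjusted p 9.97e-07. At 18 h it was -1.25 (SE 0.314, adjusted p = 0.668, and 3.7e-06 with the block). Without the block limma called 0 of the 4 transporters at either time, while ABCB1 was below an unadjusted p of 0.05 at both. With the block 1 was called at each time, ABCB1. Among all genes 0.118% were called at 0 h and 0.0263% at 18 h without the block, and 7.51% and 7.59% with it. At these times the replicate number is also the array set.

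A second ABCB1 probe set, EOS30858, was null on 28 of 30 arrays and listed at 2 and 5 on the others, both VHL-restored arrays at 0 h. The result therefore rests on EOS14680, and EOS30858 gives ABCB1 no level. Averaging both probe sets gave a log2 difference of -0.79 over the 20 RCC4 arrays, called by limma (adjusted p = 2.5e-07). With null taken as 0, averaging in this second probe set shrinks the difference by construction and is no further check.

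ABCC3 encodes MRP3, a pump of organic anions and bile salts on the basolateral side of epithelia. It was 1.27-fold lower without VHL over the 20 RCC4 arrays (log2 difference -0.35, SE 0.077, limma adjusted p = 0.0047). In set 2 its intensity was 690 to 781 (median 746.5) on 6 VHL-null arrays and 850 to 1060 (median 1010.0) on 6 VHL-restored arrays, which did not overlap. In set 1 the 4 VHL-null values, 593, 704, 568 and 602 at 0, 2, 6 and 18 h, spanned the VHL-restored values of 637, 689, 689 and 693. The log2 difference was -0.50 in set 2 (limma adjusted p = 0.00012) and -0.12 in set 1 (0.313), so the call rested on set 2. It was lower in 9 of 10 pairs, and without centring the arrays it was -0.28 and not called (adjusted p = 0.139). At 0 h alone it was -0.21 (SE 0.199, adjusted p = 1.00) and at 18 h -0.39 (SE 0.199, adjusted p = 1.00, and 0.052 with the replicate block).

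ABCC5 encodes MRP5, an exporter of cyclic nucleotides and nucleotide analogues. Its brightest probe set, EOS29029, stood at 233 to 371 on the VHL-null arrays (median 305.5) and at 274 to 414 on the VHL-restored arrays (median 316.0). These ranges overlapped in each set, while the centred value was lower without VHL in 10 of 10 pairs, by 0.053 to 0.319 on the log2 scale. How many of all genes were lower in 10 of 10 pairs was not counted. The median log2 difference of all tested genes over the RCC4 states was -0.05. Before centring 2 ABCC5 pairs ran the other way, with 363 against 349 at 18 h in set 2 and 335 against 334 after 1 h of reoxygenation. Over all states the log2 difference was -0.15 (SE 0.055, limma adjusted p = 0.077), called with array set as a term (0.0081), with quantile normalization (-0.13, 0.0388) and in set 2 alone (-0.16, 0.0369). It was -0.09 without centring (adjusted p = 0.775) and 0.00 with both probe sets averaged (0.999). In set 1 the intensities were 279, 276, 256 and 233 without VHL at 0, 2, 6 and 18 h, against 305, 298, 291 and 274 with it.

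ABCG2 was not called between the VHL genotypes. Its brightest probe set, EOS23962, stood at 287 to 408 (median 349) without VHL and at 304 to 414 (median 359) with VHL. The log2 difference over all states was -0.13 (95% interval -0.32 to 0.07, limma adjusted p = 0.454, and 0.078 with array set as a term), lower in 8 of 10 pairs. At 0 h the values were 403 and 408 against 366 and 414, with a log2 difference of 0 (interval -0.67 to 0.67).

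**Figure D2:**
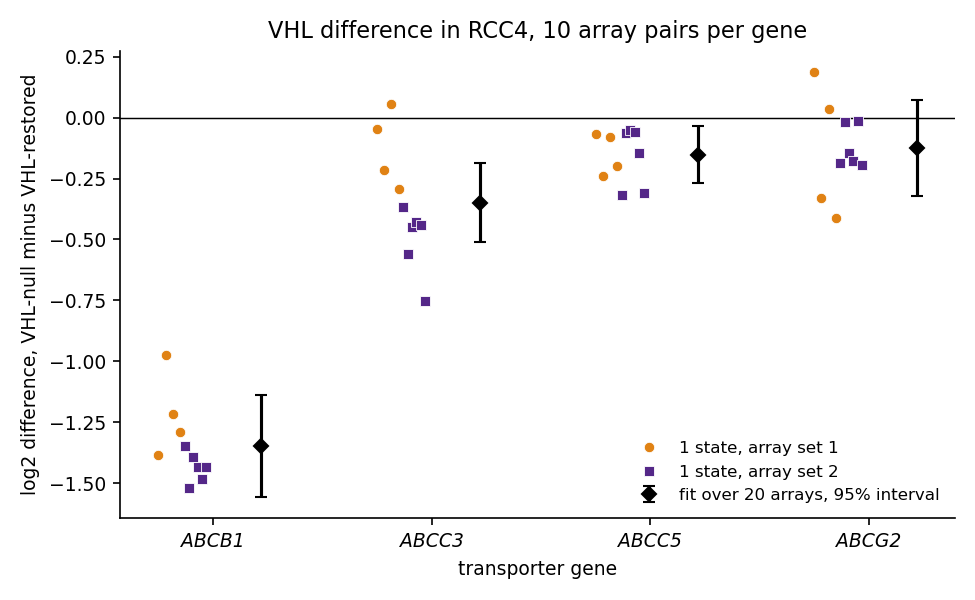
Log2 difference of VHL-null minus VHL-restored RCC4 (centred values) for the 4 tested transporters. Each point is 1 pair of arrays of the same state and replicate, 4 pairs in set 1 and 6 in set 2, and the diamond with its bar is the limma estimate over 20 arrays with the 95% interval. ABCB1 lies between -1.52 and -0.97 in all 10 pairs, while ABCC3 is closer to 0 in set 1 than in set 2.

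ABCC1 and ABCC2, which encode MRP1 and MRP2, were too dim to be tested. ABCC1, a broad exporter of glutathione conjugates, was listed at 18 to 73 on 9 VHL-null arrays and null on the other, after 4 h of reoxygenation, and was at 20 to 60 on the VHL-restored arrays. In set 1 ABCC1 read 18 to 30 on 4 VHL-null arrays and 32 to 42 on 4 VHL-restored arrays, without overlap. In set 2 the genotypes overlapped, at 35 to 73 where listed without VHL and 20 to 60 with it. ABCC1 stood at 5 to 35 in H1299 and at 12 to 33 in HCT116, so the ranges of all lines overlapped. ABCC2, the apical pump that secretes conjugates into bile and urine, was null on 25 of 30 arrays. The 5 listed values, 6 to 15, were all in RCC4, at 6 and 11 without VHL and 11 and 14 with VHL at 0 h, and at 15 on 1 VHL-null array at 18 h.

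Read by its brightest probe set, no transporter was called for hypoxia in RCC4. After 18 h in VHL-restored cells the log2 difference from 0 h was -0.09 for ABCB1 (interval -0.34 to 0.16 with the replicate block), 0.26 for ABCC3 (0.02 to 0.51), -0.14 for ABCC5 (-0.37 to 0.08) and -0.06 for ABCG2 (-0.31 to 0.18). Limma called 0 of the 4 with or without the block, and ABCC3 alone had an unadjusted p below 0.05, with the block (adjusted p = 0.253). Of all genes 0.0394% were called, and 6.58% with the block. In VHL-null cells the differences were 0.03 for ABCB1 (interval with the block -0.22 to 0.28, and -0.01 without centring), 0.08 for ABCC3, -0.10 for ABCC5 and -0.24 for ABCG2 (-0.49 to 0.01). Again 0 were called in either fit and 0 had an unadjusted p below 0.05, where 0% of all genes were called without the block (51 below an unadjusted p of 0.05) and 0.486% with it. These intervals leave out a change of ABCB1 as large as its VHL difference.

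Whether the response to hypoxia differed between the VHL genotypes was tested as an interaction, the VHL-null change minus the VHL-restored change. It was 0.12 for ABCB1 (SE 0.166 with the block, limma adjusted p = 1.00), -0.18 for ABCC3, 0.04 for ABCC5 and -0.17 for ABCG2. Limma called 0 members with or without the block and 0 had an unadjusted p below 0.05, beside 0% of all genes without the block (45 below an unadjusted p of 0.05) and 0.565% with it.

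The shorter times were single arrays, so 1 to 18 h were also set against 0 h within each genotype, with array set as a term. This comparison was chosen after the values had been seen, and it treats the times as repeats. In VHL-restored cells ABCC3 stood 0.26 above 0 h (SE 0.107, limma adjusted p = 0.261), higher in 6 of 6 array pairs of the same set, and ABCB1 at -0.05 (adjusted p = 0.789). Pairs of the same set and genotype share 1 untreated array, here and for ABCG2 below, so they are not independent. Limma called 0 of 4 members, with ABCC3 alone below an unadjusted p of 0.05, and 1.23% of all genes. After reoxygenation ABCC3 read 925 and 1007 with VHL and 752 and 690 without it, ABCC5 334 and 311 against 335 and 291, and ABCG2 342 and 304 against 377 and 309. In VHL-null cells at 1 to 18 h ABCG2 stood at -0.19 (adjusted p = 0.546, lower in 5 of 6 pairs), and 0 of 4 members and 0% of all genes were called, with 0 members and 723 genes below an unadjusted p of 0.05. For the difference between the genotypes it was 0 of 4 members, 0 below an unadjusted p of 0.05, and 0.0263% of all genes.

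A second ABCC5 probe set, EOS05104, differed from the first in level and in the size of its changes. In VHL-restored RCC4 it read 77 and 124 at 0 h and 31 to 50 on all 8 other arrays. There both probe sets were below the untreated array of the same set in 6 of 6 hypoxia pairs. These pairs share their untreated arrays, and the log2 differences were -1.36 to -0.56 for EOS05104 and -0.22 to -0.01 for EOS29029. On the VHL-null arrays EOS05104 read 48 and 128 at 0 h, 43, 42, 97 and 35 at 1, 2, 4 and 6 h, 37 and 69 at 18 h, and 84 and 110 after 1 h and 4 h of reoxygenation. The genotypes thus overlapped at 0 h, while at 4 h, 18 h and reoxygenation the VHL-null arrays lay above the VHL-restored array of the same state and set. On the centred scale EOS05104 was higher without VHL in 6 of 10 pairs and lower in 4, with a median of 0.04 and a range of -0.49 to 1.21. Fitted as a row of its own among all 16905 single-symbol probe sets, a fit chosen after its values had been seen, it stood 0.99 below 0 h at 1 to 18 h in VHL-restored cells (SE 0.216, limma adjusted p = 0.085). In VHL-null cells it was 0.43 below (adjusted p = 0.361), and the difference between the genotypes was 0.56 (SE 0.306, adjusted p = 0.700). None of the 3 was called, where limma called 0.355%, 0.148% and 0.0355% of all probe sets, and EOS29029 stood at -0.12 in VHL-restored cells. With both probe sets averaged, ABCC5 was at -0.51 at 1 to 18 h in VHL-restored cells and was called (limma adjusted p = 0.0343). The 2 probe sets correlated at r = -0.47 over the 30 arrays on the centred scale, where EOS29029 follows the array median at r = -0.85. This is a description over arrays that share lines and sets.

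**Figure D3:**
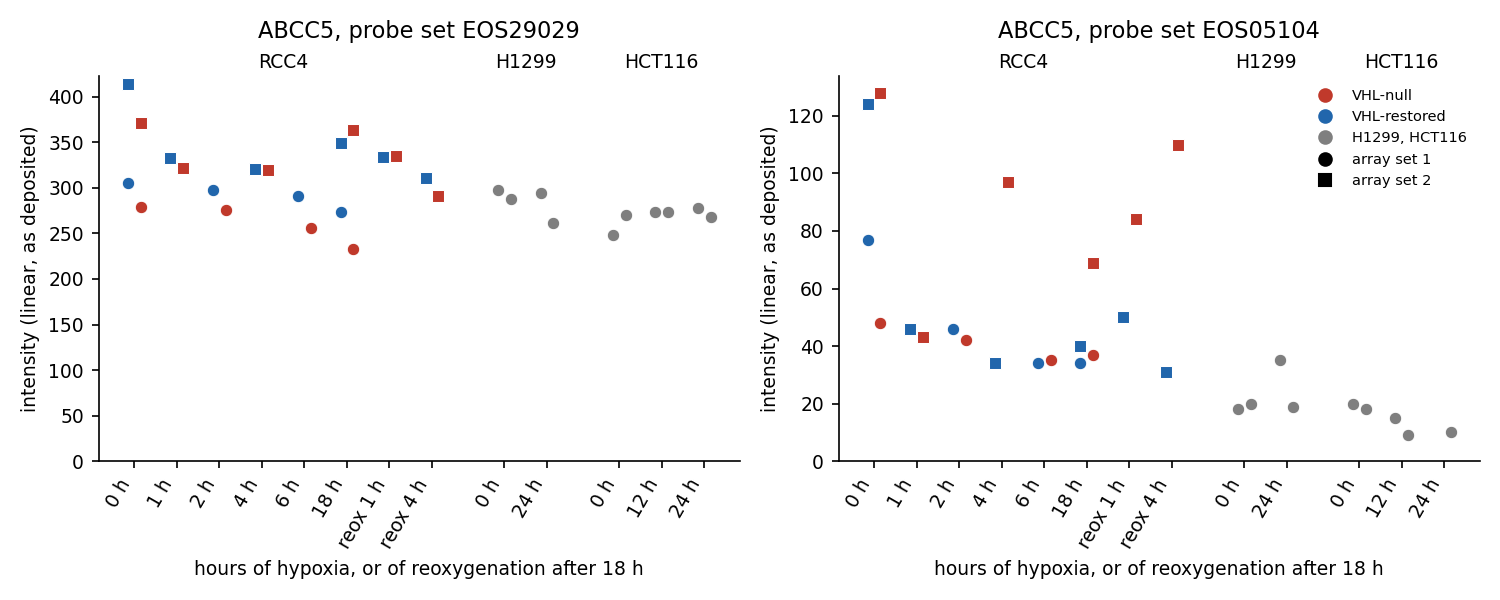
Intensity (linear, as deposited) of the 2 ABCC5 probe sets on each array, by line and by hours of hypoxia or reoxygenation, with RCC4 genotype or the other lines as colour and array set as marker shape; each panel has its own scale. In VHL-restored RCC4, EOS05104 reads 77 and 124 at 0 h and 31 to 50 on the other arrays, while EOS29029 lies between 274 and 414.

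Outside RCC4, hypoxia for 24 h was tested in H1299 and HCT116 together, with line and genotype as a block, so genotypes served as replicates. Limma called 0 of 4 transporters and 0% of all genes, with 0 transporters and 427 genes below an unadjusted p of 0.05. The log2 difference was 0.21 for ABCB1 (interval -0.21 to 0.63), 0.03 for ABCC3, 0.01 for ABCC5 (0.00 without centring) and -0.11 for ABCG2. For ABCG2 the intensity went from 400 to 342 and from 366 to 352 in H1299, and from 363 to 380 and from 395 to 326 in HCT116, so the genotypes of HCT116 went opposite ways. Over 6 backgrounds of line and genotype, late hypoxia (18 h in RCC4, 24 h elsewhere) also called 0 of 4 and 0% of all genes, with ABCG2 (-0.12, adjusted p = 0.401) the only transporter and 925 the number of genes below an unadjusted p of 0.05.

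ABCB1 was the transporter that stood highest above 0 h under hypoxia in HCT116. In HCT116 its intensity went from 54 at 0 h to 76 and 85 at 12 h and 24 h in one genotype, and from 47 to 71 and 76 in the other. In H1299 it was 69 and then 71 at 24 h in one genotype, and 67 and then 51 in the other. All 4 hypoxic HCT116 arrays thus lay above both untreated ones, while H1299 showed no shared direction. In HCT116 alone, with both times against 0 h, ABCB1 was 1.41-fold higher (log2 difference 0.50, SE 0.067, limma adjusted p = 0.0377), 1 of 4 members called beside 1.44% of all genes. This comparison was chosen after seeing the values. The call was lost when any 1 of the 6 arrays was left out (log2 difference 0.46 to 0.54) and when all 12690 genes were tested (0.50, limma adjusted p = 0.095). It was also lost when both probe sets were averaged (0.27, 0.107). The second probe set was null on all 6 HCT116 arrays, so that average shrinks the difference by construction. The 24 h change in HCT116 minus that in H1299 was 0.68 (SE 0.164, adjusted p = 0.822), with 0 of 4 members and 0% of all genes called by limma and ABCB1 and 435 genes below an unadjusted p of 0.05.

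**Figure D4:**
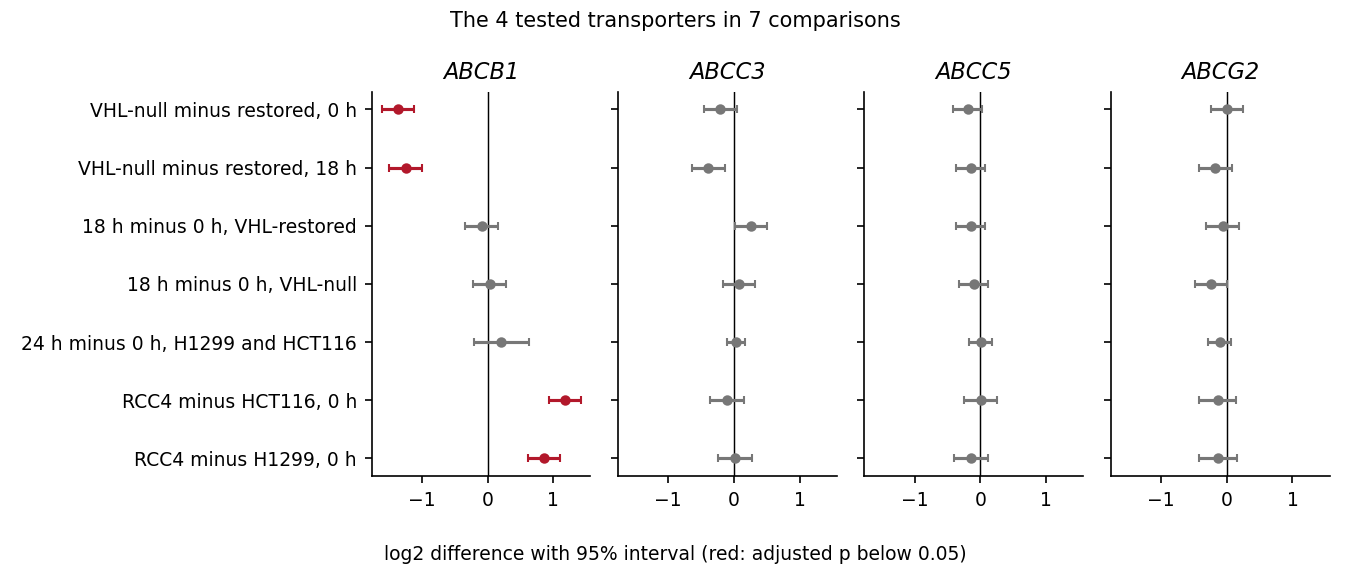
Limma log2 differences with 95% intervals for the 4 tested transporters in 7 comparisons; red marks an adjusted p below 0.05 over the 7614 tested genes. VHL and 18 h comparisons in RCC4 use the replicate block, line comparisons use array set as a term, and ABCB1 is the only transporter marked red, for VHL at both times and for RCC4 against both other lines.

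Among the untreated lines, ABCB1 was highest in RCC4. The order of its centred means at 0 h was VHL-restored RCC4 (0.97 ± 0.31, SD, n = 2), VHL-null RCC4 (-0.39 ± 0.33, n = 2), H1299 (-0.80 ± 0.02, n = 2) and HCT116 (-1.12 ± 0.12, n = 2). Of the RCC4 groups, VHL-null RCC4 lay closer to the other lines, with H1299 next below it. In set 1, the set of every H1299 and HCT116 array, the VHL-null array at 0 h read 86 against 69 and 67 in H1299. With RCC4 as the mean of its genotypes, ABCB1 was 2.65-fold higher than in HCT116 (log2 difference 1.40, SE 0.185, limma adjusted p = 0.00052) and 2.13-fold higher than in H1299 (1.09, SE 0.185, adjusted p = 0.0024). With array set as a term these were 1.18 (adjusted p = 0.00019) and 0.86 (0.00076). ABCB1 was the 1 transporter of 4 called in each, where limma called 37.4% and 31.5% of all genes, and 39.3% and 35.2% with the term. Against H1299 the call was lost without centring (1.55, adjusted p = 0.059) and with both probe sets averaged (0.31, adjusted p = 0.133). The second probe set was null on all 4 H1299 arrays, so the average shrinks this difference by construction.

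None of the other tested transporters was called between the lines at 0 h. Here the scale matters: the median log2 difference of all tested genes was -0.21 for RCC4 minus HCT116 and -0.20 for RCC4 minus H1299, and without centring every gene's difference was 0.48 and 0.46 higher. ABCC3 read 593 to 850 in RCC4, 553 and 549 in H1299 and 572 and 608 in HCT116, and its centred log2 differences of RCC4 were -0.12 from H1299 (limma adjusted p = 0.546) and -0.24 from HCT116 (0.234), which turned to 0.33 and 0.24 without centring. ABCC5 read 279 to 414 in RCC4, 288 and 298 in H1299 and 270 and 248 in HCT116, with log2 differences of -0.26 from H1299 (0.198) and -0.11 from HCT116 (0.553), which turned to 0.20 and 0.37. Its second probe set, EOS05104, read 48 to 128 in RCC4 and 18 to 20 in the other lines at 0 h, without overlap, and was 1.10 higher than in HCT116 (limma adjusted p = 0.0039) and 1.12 higher than in H1299 (0.0042) in the fit of all probe sets, where 23.2% and 18.9% of probe sets were called. ABCG2 read 366 to 414 in RCC4, 400 and 366 in H1299 and 363 and 395 in HCT116, and stood 0.41 lower in RCC4 than in either line on the centred scale (adjusted p = 0.159 against H1299 and 0.142 against HCT116), but 0.05 and 0.07 higher without centring. Leaving out replicate 1 of VHL-null RCC4 brought 2 further members past the threshold in each comparison, ABCG2 with ABCC3 against HCT116 and ABCG2 with ABCC5 against H1299, all lower in RCC4 on the centred scale. Between HCT116 and H1299 limma called 0 of 4 members, with 0 below an unadjusted p of 0.05, and 3.61% of all genes.

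Levels of ABCG2 and ABCC5 on the centred scale moved with the array itself. Before centring, the SD of ABCG2 over 30 arrays was 0.14 on the log2 scale and its correlation with the array median was r = -0.07, while after centring these were 0.34 and r = -0.91. For ABCC5 the correlation was 0.83 before and -0.85 after, for ABCC3 0.77 and -0.39, and for ABCB1 0.75 and 0.56. The second ABCG2 probe set, EOS18105, read 111 to 183 and correlated with the first at r = 0.86 on the centred scale, and the third, EOS05229, was null on 18 of 30 arrays and at 0 to 31 on the rest. These correlations describe arrays that share lines and sets and carry no test.

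**Figure D5:**
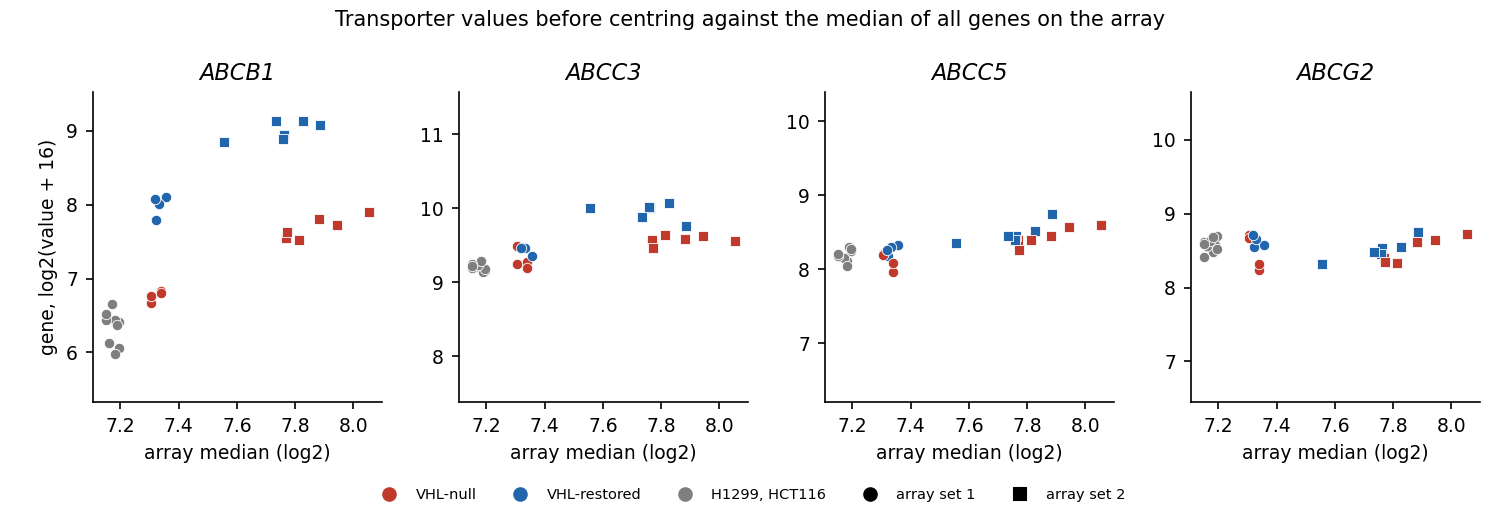
Log2(value + 16) of each tested transporter before centring (vertical axis, each panel spanning the same number of log2 units) against the median of all genes on that array (horizontal axis), with RCC4 genotype or the other lines as colour and array set as marker shape. ABCG2 is nearly level across arrays, with r = -0.07, and ABCB1 forms separate bands for VHL-restored and VHL-null RCC4 within each array set.

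The genes most like the 3 most variable tested transporters were found by correlation of centred values over the 30 arrays, again as a description. ABCB1 was closest to AIF1L (r = 0.93), SLC39A6 (0.92) and THBD (0.92), and within the 20 RCC4 arrays these were 0.945, 0.926 and 0.913. ABCC3 was closest to HSPG2 (0.91), TSPAN15 (0.87) and ABCA1 (0.87), the cholesterol exporter of the same family. ABCG2 was closest to ENHO, NKD1 and NAAA, at 0.97, 0.97 and 0.96, where ABCG2 itself follows the array median at r = -0.91. Among the transporters themselves, ABCC5 and ABCG2 correlated at 0.90, and ABCB1 with ABCC3 at 0.38. ABCC5 and ABCG2 both follow the array median on this scale, at r = -0.85 and -0.91, so their correlation includes the median that centring subtracts.

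The neighbouring gene lists place these values among other transport and drug-handling genes, for VHL-null minus VHL-restored over the 20 RCC4 arrays. The median log2 difference was -0.25 for the 4 transporters and -0.05 for all tested genes, and 15.1% of all tested genes were called, a share to set beside each count. Of 15 other ABC transporters tested, 1 was higher and 2 lower (median -0.09): ABCA3, a lipid transporter of lung surfactant, was 0.45 higher (SE 0.074, limma adjusted p = 0.00054), ABCF3 was at -0.39 (5.1e-05) and ABCA1 at -0.45 (0.0054). Of 10 uptake carriers 1 was higher, SLCO2B1, an importer of organic anions, at 0.48 (0.0152), and 0 lower (median -0.03). Of 20 conjugation and glutathione enzymes, which make many of the ABCC cargoes, 1 was higher and 4 lower (median -0.10). Here GSTO1, a glutathione transferase, was at 0.38 (limma adjusted p = 0.0012), whereas EPHX1, the microsomal epoxide hydrolase, was at -0.64 (0.00013), GSTP1, a glutathione transferase, at -0.37 (0.0052) and SULT1A3, a sulfotransferase, at -0.22 (0.0278).

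Of 13 xenobiotic sensors and regulators tested, 0 were higher and 2 lower without VHL (median -0.09). The transcript of HIF1A, an oxygen-labile HIF subunit, stood at -1.26 (SE 0.078, limma adjusted p = 2.6e-08) and that of CEBPB, a transcription factor described as acting on ABCB1, at -0.43 (0.0020). Of 8 membrane scaffold and non-ABC resistance genes 0 were called either way by limma (median -0.07). With array set as a term, where 34.2% of all genes were called, the calls were 1 higher and 6 lower among the other ABC transporters, 1 and 1 among the uptake carriers, 1 and 7 among the enzymes, 2 and 6 among the regulators, and 1 and 1 among the scaffold and resistance genes.

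At 18 h against 0 h limma called 0 genes of these lists without the block in either genotype, where 0.0394% of all genes were called with VHL and 0% without it. With the replicate block 5 list genes were called in VHL-restored cells and 1 in VHL-null cells, beside 6.58% and 0.486% of all genes. Limma then called 0 enzymes and 0 uptake carriers in VHL-restored RCC4. ABCA3 was 0.38 higher (SE 0.097, limma adjusted p = 0.0236), as was FOXO3, a transcription factor, at 0.46 (0.0168). NFYA, a subunit of the factor that binds CCAAT, was at -0.40 (0.0187) and NFE2L2, the regulator of the antioxidant response also called NRF2, at -0.48 (0.0401). TOP2A, the topoisomerase poisoned by anthracyclines and a proliferation gene, fell in both genotypes, by 0.62 on the log2 scale in VHL-restored cells (0.0040) and by 0.68 in VHL-null cells (0.0147).

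Between RCC4 and the other lines at 0 h the lists held many calls, as did all genes. The median log2 difference of all tested genes was -0.21 against HCT116 and -0.20 against H1299. Without centring every difference would be 0.48 and 0.46 higher, so counts of lower genes depend on the scale. Against HCT116, where 37.4% of all tested genes were called, RCC4 had 3 enzymes higher and 1 lower of 20, 3 scaffold or resistance genes higher and 2 lower of 8, 3 uptake carriers lower of 10 and 4 other ABC transporters lower of 15. Against H1299, where 31.5% were called, 5 enzymes were higher and 1 lower, 2 scaffold or resistance genes higher and 0 lower, 3 uptake carriers lower and 4 other ABC transporters lower. Of 13 xenobiotic sensors and regulators, 2 were higher and 2 lower against HCT116, and 4 higher and 2 lower against H1299. UGT1A6 and UGT2B7, which attach glucuronate to drugs, were 4.78 and 3.68 higher than in HCT116 on the log2 scale (limma adjusted p = 2.5e-07 and 5e-06), though their family members are close in sequence and may share probes. Of the scaffolds, RDX (radixin), which anchors membrane pumps to actin, was 1.40 higher (0.00043) and CAV1 (caveolin) 1.58 higher (0.00046). SLC22A6, a renal organic anion importer, was 1.00 lower (0.00072) and ABCA5 1.94 lower (0.0013). In HCT116 under hypoxia, in the comparison chosen after seeing the values, ABCA5 was at -1.34 (0.0375), HIF1A at -0.86 (0.0238) and NR3C1, the glucocorticoid receptor, at -0.62 (0.0202), beside ABCB1 at 0.50. These were 1 lower of 15 other ABC transporters and 2 lower of 13 regulators, where 1.44% of all genes were called. Whether these list calls hold with an array left out was not tested.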

How the data were processed

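The authors deposited linear intensity values in whole numbers, 1 table for 30 arrays, per the labels made by the Affymetrix GeneChip protocol. The scaling, the software and the meaning of a null entry are not given in the sources used here. Null was taken as 0, values were analysed as log2(value + 16), and each array was centred on its median over 12690 genes, since array medians spanned 0.90. Of 17478 annotated probe sets 16905 had a single symbol and 573 several. The upper 60% of genes by mean value, 7614, were tested in limma (version 3.58.1, under R 4.3.3). Tests were two-sided, p-values were adjusted over these genes by Benjamini-Hochberg, and the threshold was 0.05. The scripts were tested on simulated data. Folds are on the log2(value + 16) scale and understate changes of dim genes. The number of arrays limits the precision.

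The RCC4 replicates at 0 h and 18 h were fitted without a block. Replicate differences correlated at 0.79 to 0.92 across genes over 6 pairs of groups, so values with the replicate block are given too. The replicate number is also the array set at these times, so a pairing of samples and a shift between sets cannot be told apart. Where genotypes, times or states serve as repeats, p-values measure only their spread. Named genes are all members, at most 4 genes per list and comparison by limma's moderated statistic, and the 3 genes most correlated with each of the 3 most variable tested members. Members and lists were chosen with earlier results of these data known. The comparison between genotypes of H1299 and HCT116 is not reported here. Alternatives were the pseudocount, the filter, centring, null entries, probe sets, blocks and left-out arrays.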

Additional observations from a re-analysis of the deposited data

How the results depend on the processing

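Each of 64 member differences was recomputed under the alternatives, 916 times in all. In the main fits 5 of the 64 were called, so most recomputed differences started uncalled. Of the 916, 893 stayed on the same side of the threshold, of which 69 changed sign with no call either way. Another 10 gained a call, 12 lost one and 1 reversed with a call. The reversal was ABCC5 in RCC4 minus HCT116 with all probe sets averaged, at 0.44, which takes in EOS05104. The count of called members went from 0 to 1 with the replicate block for VHL at 0 h and at 18 h, and the block changed no other member call. Over all RCC4 states it went from 2 to 1 without centring and in array set 1 alone, and to 3 with quantile normalization, in array set 2 alone and with array set as a term. For RCC4 minus HCT116 it was 2 with probe sets averaged, and 1 to 3 as arrays were left out in turn. For RCC4 minus H1299 it was 0 without centring, 0 with probe sets averaged, and 1 to 3 as arrays were left out. In the comparisons added after seeing the data, it was 0 for hypoxia in HCT116 with no filter, with probe sets averaged and with any array left out, and 1 for 1 to 18 h in VHL-restored RCC4 with probe sets averaged, where ABCC5 was at -0.51. The causes were not tested beyond what the construction of each alternative shows. ABCC1 and ABCC2 fell below the brightness filter and were not among the tested genes, so no difference of theirs was called or excluded. The second ABCB1 probe set was null on 28 of 30 arrays. Averaging over both ABCB1 probe sets therefore shrinks the ABCB1 difference by construction.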
